A study of Mus musculus with 8 samples.

Results

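Receptors for the constant part of immunoglobulin G and the adaptors that signal for such receptors were examined across CD45+/Sca1+ cells of bone marrow and muscle. All probe sets annotated with a single symbol to Fcgr1, Fcgr2b, Fcgr3, Fcer1g, Fcgrt or Tyrobp were taken, which gave 9 probe sets of 6 genes out of 22626 probe sets and 12393 named genes. Fcgr2b had 4 probe sets and each other gene had 1, and all 9 passed the filter on low values. CD45 marks cells of the blood lineage, and Sca1 marks mouse progenitors together with some mature cells. All mice were C57BL/6 and 6 to 8 weeks old, and 8 Affymetrix mouse 430A arrays were hybridised, 2 for each of 4 groups. Bone marrow and uninjured muscle made up 2 of these groups. Cardiotoxin, a component of snake venom that kills myofibres, had been given in both remaining groups, in mice without a transplant (injured muscle) and in mice transplanted with bone marrow (transplanted injured muscle). The sources used here do not give the time after injury, the transplant donors, or the donor or host origin of the sorted cells. There was no group of uninjured muscle from transplanted mice, so the transplant could be compared after injury only. Nothing in the labels says that the 2 arrays of a group came from separate animals, so p-values measure the spread between arrays, which may be technical.

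Fc gamma receptors let phagocytes bind antibody-coated particles. Fcgr1 (CD64, the high-affinity receptor) and Fcgr3 (CD16, a low-affinity receptor) are activating and depend on the common gamma chain, Fcer1g, which carries the tyrosine motif that recruits the kinase Syk. Fcgr2b (CD32) is the inhibitory receptor of the family and recruits phosphatases. Tyrobp (DAP12) is an adaptor with the same kind of motif and serves receptors such as Trem2 and activating receptors of natural killer cells. Fcgrt, the neonatal Fc receptor, is built differently: it pairs with beta-2-microglobulin and returns immunoglobulin G and albumin from endosomes to the cell surface.

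Fcgr2b, Fcgr3 and Fcer1g lie on chromosome 1 within 1 region, at positions 170960558 to 170976071, 171051169 to 171065915 and 171229572 to 171234349 of build GRCm38.p6. Fcgr1 lies on chromosome 3 (96282909 to 96293969), and Tyrobp (30413782 to 30417582) and Fcgrt (45092993 to 45103822) lie on chromosome 7. The 250 bases before the annotated start, taken from RefSeq on GRCm38.p6, were available for 5 of the 6 genes, all on the minus strand, and are shown for 4 genes because these followed different courses over the groups: Fcgr1 had the largest rise, Fcgr3 and Fcer1g rose with it, and Fcgrt did not. Capitals mark matches, on either strand, to GAGGAA, the core recognised by the myeloid factor PU.1, and to TTCNNNGAA, the gamma-interferon activated site, which reads the same on both strands; the 2 motifs did not overlap in these windows.
Fcgr1, chr3:96293970-96294219: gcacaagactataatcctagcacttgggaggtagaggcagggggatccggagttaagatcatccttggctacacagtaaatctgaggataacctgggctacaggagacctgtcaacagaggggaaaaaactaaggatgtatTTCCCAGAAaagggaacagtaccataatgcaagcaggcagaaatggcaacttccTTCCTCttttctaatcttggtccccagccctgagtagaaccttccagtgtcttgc
Fcgr3, chr1:171059395-171059644: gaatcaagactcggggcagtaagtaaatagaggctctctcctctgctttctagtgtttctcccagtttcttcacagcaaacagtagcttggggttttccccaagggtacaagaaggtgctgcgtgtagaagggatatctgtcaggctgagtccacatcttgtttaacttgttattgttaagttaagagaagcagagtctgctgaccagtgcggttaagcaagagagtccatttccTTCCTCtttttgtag
Fcer1g, chr1:171234350-171234599: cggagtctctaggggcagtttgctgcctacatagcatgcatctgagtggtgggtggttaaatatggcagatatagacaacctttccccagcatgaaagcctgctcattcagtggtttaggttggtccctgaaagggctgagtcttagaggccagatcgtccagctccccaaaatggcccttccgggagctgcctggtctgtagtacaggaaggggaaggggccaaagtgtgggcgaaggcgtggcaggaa
Fcgrt, chr7:45103823-45104072: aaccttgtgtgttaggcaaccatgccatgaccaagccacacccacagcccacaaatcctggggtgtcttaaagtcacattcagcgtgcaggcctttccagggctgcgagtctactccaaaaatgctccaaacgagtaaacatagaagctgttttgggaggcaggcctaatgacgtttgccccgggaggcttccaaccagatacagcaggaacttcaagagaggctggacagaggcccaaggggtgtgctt
The Fcgr1 window held both motifs, TTCCCAGAA at 109 to 101 bases and TTCCTC at 55 to 50 bases before the start. The Fcgr3 start shown lies inside the gene span given above, not at its outer end. Fcgr3 held TTCCTC at 15 to 10 bases before the start shown and no gamma-interferon activated site. Fcer1g, Fcgrt and the Fcgr2b window, which is not shown, held neither. Of all 32851 RefSeq windows of the same length, 23.3% held GAGGAA and 7.02% held TTCNNNGAA, so such matches are common, and a window without a match says only that these letters are not there.

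Values are intensities on a linear scale, which the authors scaled to a common level on each array, and they are compared between groups for 1 probe set at a time. Ptprc, the gene of CD45, had 4924 to 6996 on the 8 arrays and was called in 0 of the 6 comparisons, and Ly6a, the gene of Sca1, was not analysed here. Over all tested probe sets the 2 arrays of a group correlated at 0.837 in uninjured muscle, the lowest of the groups, at 0.929 in bone marrow, and at 0.956 and 0.957 in the injured groups. The 3' over 5' ratio of a control can be affected by RNA integrity. For Gapdh it was 10.7 to 46.9 on the 4 bone marrow and uninjured muscle arrays and 0.808 to 0.882 on the 4 injured arrays. For beta-actin it was 5.68 to 19.0 and 1.18 to 1.23 on the same arrays. The ratio thus moved with every comparison of an injured with an uninjured group. It also differed between bone marrow and uninjured muscle for beta-actin, at 5.75 and 5.68 against 19.0 and 10.1. For Gapdh these groups overlapped, at 24.4 and 10.7 against 46.9 and 13.6. The part of this ratio in all these comparisons was not tested and cannot be told apart from the difference between the groups.

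Fcgr1 had the largest ratio between its highest and lowest group means among the 9 probe sets. It read 124 and 81.6 in bone marrow against 317 and 629 in uninjured muscle, then 4688 and 4158 after injury and 5591 and 6124 after injury in transplanted mice. The 4 groups did not overlap, and each stood above the one before it in this order. Fcgr3 read 339 and 259 in bone marrow against 992 and 1840 in uninjured muscle, then 4137 and 3852 after injury and 3655 and 3802 after injury in transplanted mice. It followed the same steps as Fcgr1 up to injury, but its 2 injured groups lay next to each other, with the transplanted arrays just below.

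The adaptor Fcer1g read 631 and 657 in bone marrow against 1113 and 1544 in uninjured muscle, then 8211 and 8585 after injury and 10120 and 9827 after injury in transplanted mice. Its arrays agreed within each group to within 1.39-fold, and its order of groups was that of Fcgr1. Tyrobp read 4668 and 4618 in bone marrow against 3756 and 4785 in uninjured muscle, then 12470 and 12948 after injury and 12502 and 11166 after injury in transplanted mice. Its arrays of bone marrow and uninjured muscle overlapped, as did those of the 2 injured groups, and all 4 injured arrays lay above the others.

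The inhibitory receptor Fcgr2b was measured by 4 probe sets that gave the same order of groups, lowest in bone marrow, then uninjured, transplanted injured and injured muscle. The brightest (1435477_s_at) read 862 and 457 in bone marrow against 2492 and 3159 in uninjured muscle, then 9475 and 9594 after injury and 7226 and 6121 after injury in transplanted mice. The tightest between arrays of a group (1435476_a_at) had 579 and 612, 1878 and 1858, 5709 and 5512, and 3946 and 4147 in the same order of groups. The suffix _s_at marks probes that can match more than 1 gene and _x_at probes with close matches elsewhere, and signal shared with Fcgr3, a near relative, was not tested. Across the 8 arrays the 4 probe sets had correlations of 0.970 to 0.996 with each other on the log2 scale.

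Fcgrt followed a different order. It read 485 and 642 in bone marrow against 1126 and 4634 in uninjured muscle, then 1707 and 1652 after injury and 492 and 356 after injury in transplanted mice. The uninjured muscle arrays differed 4.11-fold from each other, the widest gap within a group among the 9 probe sets, and enclosed the injured arrays. Its correlation with each of the other 8 probe sets over the 8 arrays, which share their groups and scaling, lay between -0.13 and 0.24, whereas the other 8 had correlations of 0.812 to 0.996 among themselves.

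**Figure D1:**
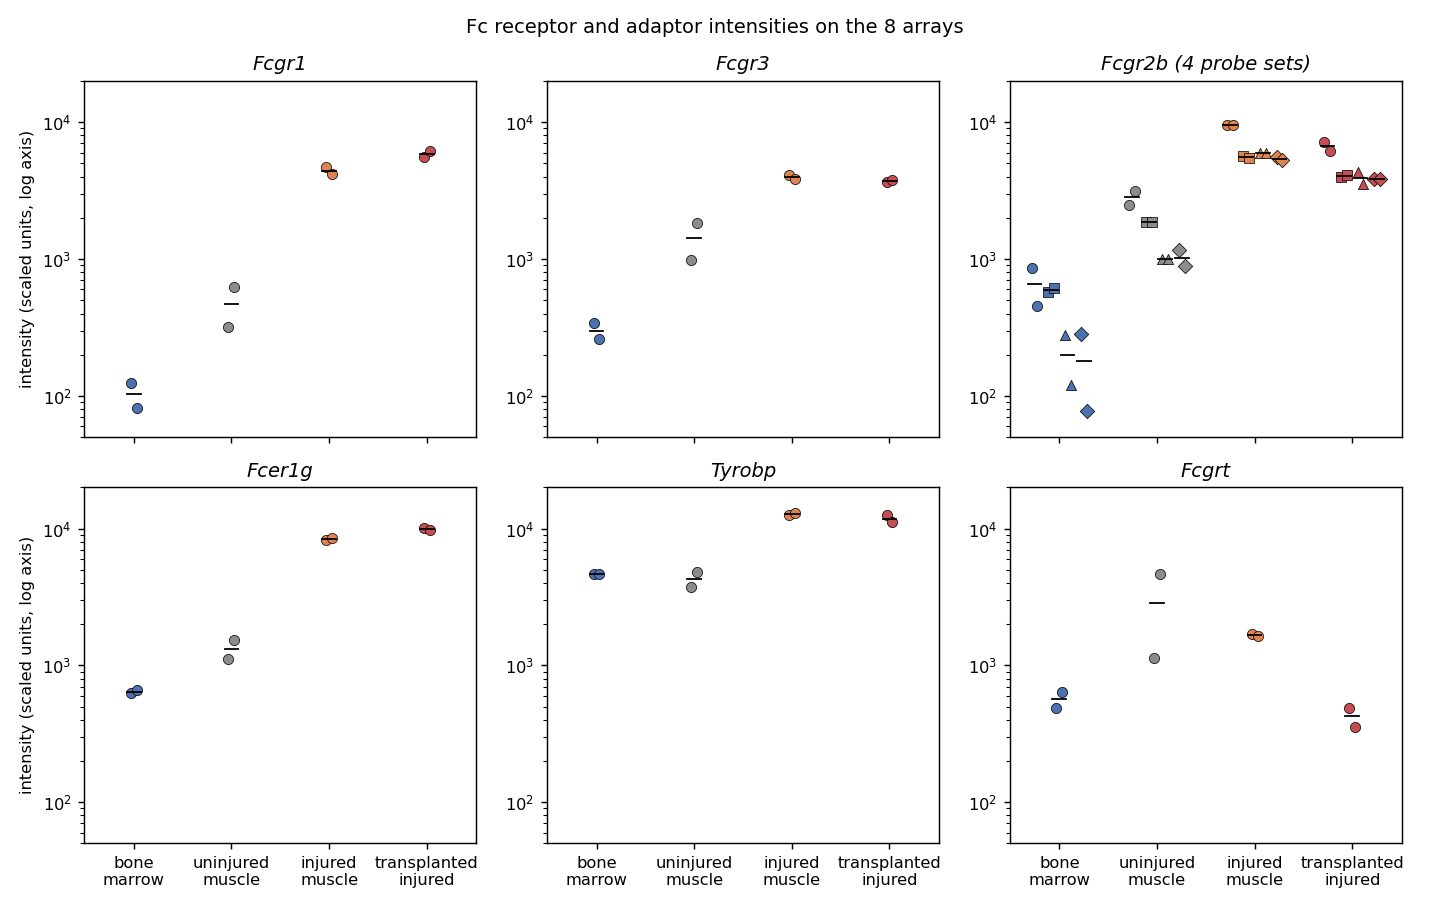
Intensity (log axis) of each member on the 8 arrays, 2 arrays per group, where a bar is the group mean and the 4 symbols of Fcgr2b are its 4 probe sets (circles 1435477_s_at, squares 1435476_a_at, triangles 1455332_x_at, diamonds 1451941_a_at). Fcgr1 climbs from 81.6 to 124 in bone marrow to 5591 to 6124 in transplanted injured muscle, Tyrobp has its 4 injured arrays above the others, and Fcgrt is lowest, at 356 and 492, in transplanted injured muscle.

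Resting muscle was compared with bone marrow to ask how cells of this sort gate in muscle differ from those of the marrow. Fcgr1, Fcgr2b, Fcgr3 and Fcer1g were higher in muscle, Tyrobp was not, and Fcgrt was higher on both arrays without passing the test. Of the 9 probe sets 7 rose and none fell at an adjusted p of 0.05, where 4.83% of all 16293 tested probe sets rose and 1.25% fell. By gene, with the brightest probe set standing for Fcgr2b, 4 of 6 rose, where 5.85% of all tested genes rose and 1.4% fell. The median log2 fold change of the 9 probe sets was 2.11, against -0.03 over all tested probe sets. The largest fold belonged to an Fcgr2b probe set (1451941_a_at), with 1021 ± 194 in muscle and 179 ± 144 in bone marrow (SD, n = 2; log2 fold change 2.74, SE 0.51, adjusted p = 0.0179). Its bone marrow arrays differed 3.63-fold, and the log2 fold change was 3.64 without bone marrow replicate 1 and 1.83 without replicate 2. Fcgr1 had 473 ± 220 against 103 ± 30.0 (log2 fold change 2.11, SE 0.37, adjusted p = 0.0135). Fcgr3 was 4.74-fold higher (adjusted p = 0.00611) and Fcer1g 2.06-fold higher (adjusted p = 0.0307), the smallest of the rises, which did not pass with median centring (adjusted p = 0.0591), without an intensity trend (adjusted p = 0.122) or with array weights (adjusted p = 0.0968). For Tyrobp the log2 difference was -0.13, with a 95% interval from -0.52 to 0.26, whose upper end is below the smallest rise of the other members, 1.02. Fcgrt had 2880 ± 2481 against 564 ± 111 (log2 difference 2.03, 95% interval 0.69 to 3.36, adjusted p = 0.0919). With only the 4 arrays of this comparison in the fit none of the 9 passed (adjusted p = 0.0872 to 0.365 for the 7 that had risen), where 1.77% of all probe sets did. Leaving out 1 array at a time gave 5 to 8 calls: Fcer1g did not pass without either array of bone marrow, injured or transplanted injured muscle (adjusted p = 0.0866 to 0.122), Fcgr1 without bone marrow replicate 2 (adjusted p = 0.0858), and the Fcgr2b probe set 1451941_a_at without either injured array. Fcgrt rose without uninjured muscle replicate 1 (log2 fold change 3.04, adjusted p = 0.000795), while its difference was 1.01 without replicate 2, which did not pass.

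The injured groups were compared with uninjured muscle to ask what differs in these cells after cardiotoxin. All activating and inhibitory Fc gamma receptors and both adaptors rose, with Fcgr1 and Fcer1g rising furthest, in both injured groups. In injured muscle 8 of the 9 probe sets rose, where 12.1% of all tested probe sets rose and 13.9% fell, and the median log2 fold change was 1.76 against -0.14 over all tested. By gene 5 of 6 rose, where 8.77% of all tested genes rose and 15.1% fell. Fcgr1 had 4423 ± 375 against 473 ± 220, which was 9.36-fold (log2 fold change 3.29, SE 0.37, adjusted p = 0.00162). Fcer1g had 8398 ± 264 against 1328 ± 305, which was 6.32-fold (log2 fold change 2.68, SE 0.22, adjusted p = 0.000697). Tyrobp was 2.98-fold higher (adjusted p = 0.00144), and Fcgr3 2.82-fold higher (adjusted p = 0.0115). The 4 Fcgr2b probe sets were 3.0-fold to 5.92-fold higher (adjusted p = 0.00207 to 0.0127). Fcgrt overlapped between these groups (log2 difference -0.44, 95% interval -1.78 to 0.89, adjusted p = 0.587), and its sign rested on the uninjured arrays: it was 0.57 without uninjured muscle replicate 2 and -1.46 without replicate 1, where it passed (adjusted p = 0.0104). Without injured muscle replicate 1 the count was 5 of 9, since Fcgr3 and the Fcgr2b probe sets 1435477_s_at and 1451941_a_at did not pass, and without replicate 2 Fcgr3 and 1451941_a_at did not.

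In transplanted injured muscle, set against the same uninjured arrays, 8 of the 9 probe sets rose and 1 fell, where 13.9% of all tested probe sets rose and 18.5% fell. By gene 5 of 6 rose and 1 fell, where 10.5% of all tested genes rose and 20.7% fell. Fcgr1 had 5858 ± 376 and was 12.4-fold higher (log2 fold change 3.70, SE 0.37, adjusted p = 0.000728). Fcer1g had 9973 ± 207 and was 7.51-fold higher (adjusted p = 0.000317). Tyrobp, at 11834 ± 944, was 2.77-fold higher (adjusted p = 0.0011) and Fcgr3, at 3729 ± 104, 2.63-fold higher (adjusted p = 0.0117). The Fcgr2b probe sets were 2.17-fold to 3.91-fold higher (adjusted p = 0.00492 to 0.0239). Fcgrt was the one member that fell, with 424 ± 96.4 against 2880 ± 2481 (log2 fold change -2.44, SE 0.58, adjusted p = 0.0155). Its log2 fold change was -3.46 without uninjured muscle replicate 1 and -1.42 without replicate 2. Fcgrt lost its call with only the 4 arrays compared (adjusted p = 0.0687) and without either transplanted injured array (adjusted p = 0.0601 and 0.0956). Without transplanted injured replicate 1 or 2 the count of members called was 4 or 5, Fcgr3 and the Fcgr2b probe sets 1435477_s_at and 1451941_a_at being lost with both and 1455332_x_at with replicate 1.

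**Figure D2:**
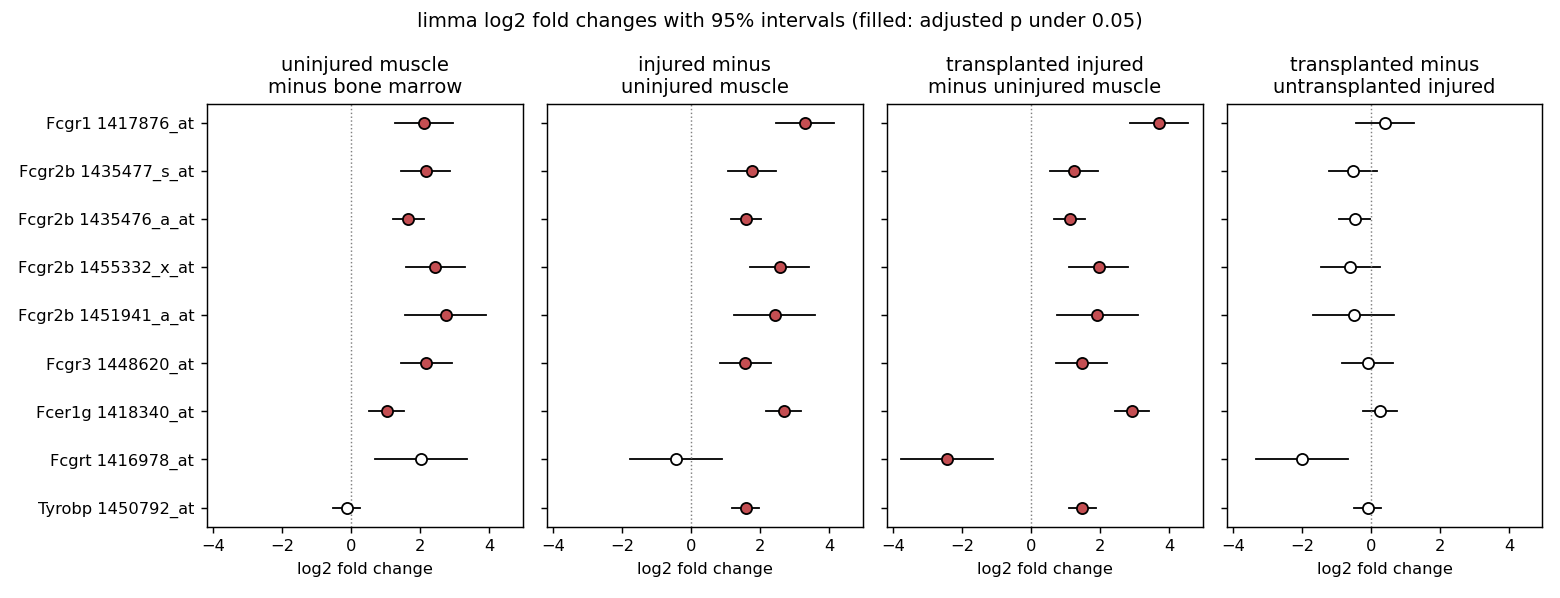
Log2 fold changes of the 9 probe sets (points) with 95% intervals of the limma fit (lines) in 4 comparisons, filled where the adjusted p was under 0.05. The 8 probe sets other than Fcgrt lie right of 0 in both comparisons of injured with uninjured muscle, and in the comparison of the injured groups no point is filled.

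Transplanted and untransplanted injured muscle were compared to ask what the transplant changes after injury. Fcgrt had 0.252 of its untransplanted level in transplanted mice, the 4 Fcgr2b probe sets were lower, and Fcgr1 and Fcer1g were higher. None of these differences passed limma's test: 0 of the 9 probe sets were called, where 0.252% of all tested probe sets were, and 2 of the 9 had an unadjusted p under 0.05, where 8.75% of all tested did. The groups did not overlap for 8 of the 9, all but Tyrobp, where 50.2% of all tested probe sets did not overlap. Of these 8, 4 are probe sets of 1 gene, Fcgr2b, so they are not separate results. The median log2 difference was -0.10 by gene and -0.47 by probe set. Fcgrt had 424 ± 96.4 in transplanted and 1679 ± 38.3 in untransplanted injured muscle (log2 difference -1.99, SE 0.58, 95% interval -3.33 to -0.66, adjusted p = 0.275). Its SE took in the 4.11-fold gap between the uninjured muscle arrays. With only the 4 injured arrays in the fit Fcgrt fell (adjusted p = 8.64e-05), and it also did without uninjured muscle replicate 1 (adjusted p = 0.00947) or replicate 2 (adjusted p = 0.0101).

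The 4 Fcgr2b probe sets had log2 differences of -0.61 to -0.47 in that comparison, which correspond to 0.660 to 0.721 of the untransplanted level (adjusted p = 0.525 to 0.98). With only the 4 injured arrays all 4 passed (adjusted p = 0.028 to 0.0496), where 6.9% of all probe sets did. Fcgr1 was 1.32-fold higher in transplanted mice (log2 difference 0.41, 95% interval -0.44 to 1.25, adjusted p = 0.957). Fcer1g was 1.19-fold higher (0.25, interval -0.25 to 0.75, adjusted p = 0.951). For Fcgr3 (-0.10, interval -0.84 to 0.64) and Tyrobp (-0.10, interval -0.50 to 0.29) the sign turned with median centring of the arrays (0.04 and 0.03). These intervals do not show that the levels were alike.

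To set activating against inhibitory receptors, the change of their log2 ratio within each array was computed, which does not depend on the scaling of an array. From injured to transplanted injured muscle the log2 ratio of Fcgr1 to Fcgr2b was higher by 0.88 to 1.01 over the 4 Fcgr2b probe sets, that of Fcer1g to Fcgr2b by 0.72 to 0.86, and that of Fcgr3 to Fcgr2b by 0.37 to 0.51. The ratio of Tyrobp, which is not an Fc receptor, to Fcgr2b was higher by 0.37 to 0.50, and that of Fcgrt was lower (-1.52 to -1.39). Fcgr3 itself had 0.933 of its untransplanted level, so its ratio was higher because Fcgr2b was lower. These ratios all reuse the same 4 arrays and the probe sets of 1 inhibitory gene, so they are not separate results. With 2 arrays against 2 the exact permutation test (two-sided) gave p = 0.333 for each, the smallest value this design allows, so the differences could not pass a threshold of 0.05. From uninjured to injured muscle the ratio of Fcgr1 to Fcgr2b changed by 0.73 to 1.71 over the 4 probe sets, while that of Fcgr3 to Fcgr2b changed by -1.001 to -0.0246. That of Fcer1g to Tyrobp, the 2 adaptors, changed by 1.15 from bone marrow to uninjured muscle, by 1.09 from there to injured muscle and by 0.35 from injured to transplanted injured muscle.

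**Figure D3:**
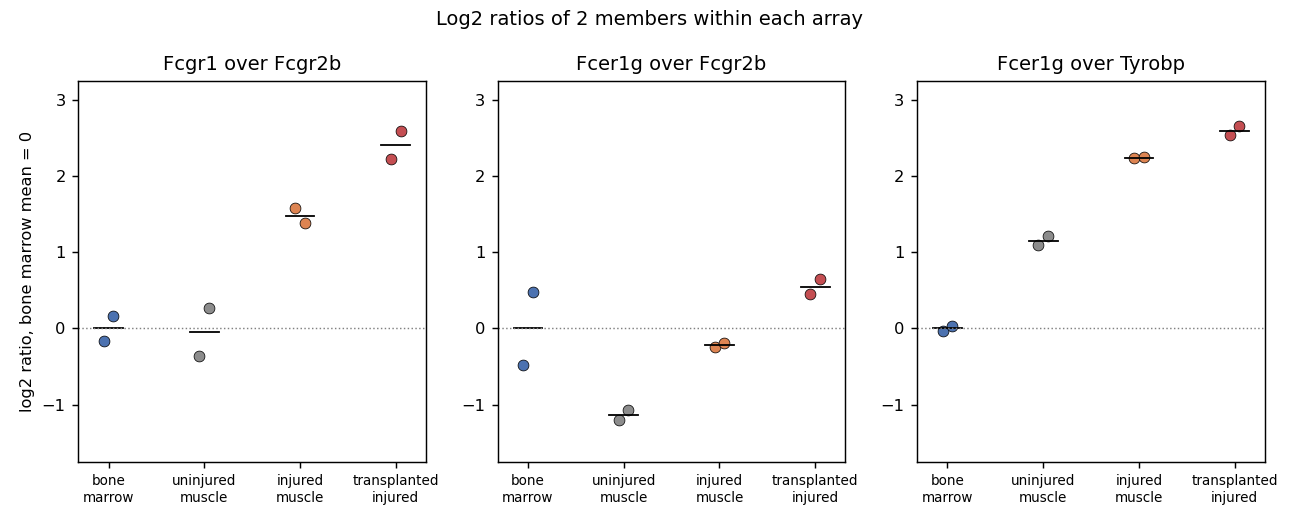
Log2 ratio of 2 members within each array, shifted so that the bone marrow mean is 0, for Fcgr1 over the brightest Fcgr2b probe set, Fcer1g over the same probe set and Fcer1g over Tyrobp. Points are the 2 arrays of a group and bars their mean, and the transplanted injured arrays are highest in each panel except that 1 bone marrow array reaches the transplanted injured arrays for Fcer1g over Fcgr2b.

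Set against bone marrow, the injured groups gave the widest differences of Fcgr1, Fcgr2b, Fcgr3 and Fcer1g, but not of Tyrobp or Fcgrt. In injured muscle 8 of the 9 probe sets rose, where 15.5% of all tested rose and 15.5% fell, and in transplanted injured muscle 8 rose, where 15.1% rose and 17.4% fell. These comparisons share the bone marrow arrays, and both share injured arrays with the comparisons above. Fcgr1 was 43.0-fold higher in injured muscle (log2 fold change 5.40, SE 0.37, adjusted p = 9.03e-05) and 57.0-fold higher in transplanted injured muscle (5.81, adjusted p = 7.39e-05). Fcer1g was 13.0-fold and 15.5-fold higher, Fcgr3 13.4-fold and 12.5-fold, and Tyrobp 2.74-fold and 2.55-fold. Fcgrt was 2.98-fold higher in injured muscle (log2 difference 1.58, adjusted p = 0.071), which passed with only the 4 arrays compared (adjusted p = 0.00381) and without uninjured muscle replicate 1 or 2 (adjusted p = 0.00136 and 0.00149), and overlapped with bone marrow in transplanted injured muscle (log2 difference -0.41, 95% interval -1.74 to 0.92).

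Other genes of Fc receptor biology were taken from lists, with the brightest probe set standing for a gene. Of 10 other Fc receptor genes, counted with B2m, 2 were higher in injured than in uninjured muscle, 3 were lower and 5 did not pass, with a median log2 fold change of -0.53, where 8.77% of all tested genes rose and 15.1% fell with a median of -0.25. Fcgr4 is an activating receptor that also depends on Fcer1g, and its gene lies between Fcgr2b and Fcgr3. Unlike Fcgr1 and Fcgr3 it did not pass between uninjured muscle (241 and 247) and bone marrow (233 and 175). It had 1444 and 1368 in injured muscle, and 2062 and 1678 in transplanted injured muscle. It rose by 2.51 on the log2 scale after injury (adjusted p = 0.0017) and by 2.91 in transplanted mice (adjusted p = 0.000691). B2m, the partner chain of Fcgrt and of MHC class I, rose too, with 16751 ± 569 in injured against 6379 ± 2414 in uninjured muscle (adjusted p = 0.00728), while Fcgrt did not. Fcer2a, the low-affinity receptor for immunoglobulin E of B cells, was at least 7.49-fold lower, and Fcrla, another B cell gene of the family, at least 8.09-fold lower.

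Fcrls, a scavenger receptor-like member of the Fc receptor family, read 40.7 and 33.8 in bone marrow against 1361 and 3720 in uninjured muscle, then 3334 and 3118 after injury and 961 and 1022 after injury in transplanted mice. It rose from bone marrow, where its arrays lay around the filter value of 38.3, to uninjured muscle (adjusted p = 0.000318). Fcer1a, the chain of the high-affinity immunoglobulin E receptor that binds its ligand, rose from 38.3 ± 7.01 in bone marrow to 160 ± 8.89 in uninjured muscle (adjusted p = 0.0377) and fell to 33.8 ± 19.2 in transplanted injured muscle (adjusted p = 0.00774). Between the injured groups none of the 10 passed limma's test, where 0.0421% of all genes rose and 0.273% fell. An unadjusted p under 0.05 was reached by 3 of them, and by 8.75% of all tested probe sets. On the list of ligands Ighg3 was the only immunoglobulin G chain tested, as Ighg1, Ighg2b and Ighg2c had no single-gene probe set. It read 5.56 and 26.9 in uninjured and 7.61 and 6.82 in injured muscle, under the filter value, and did not pass (adjusted p = 0.579). Igha and Jchain, heavy and joining chains of secreted antibody of other classes, were lower after injury. Jchain was at least 66.6-fold lower in injured than in uninjured muscle (adjusted p = 0.000122) and Igha at least 38.5-fold lower. In transplanted injured muscle 4 of the 6 tested genes of this list fell, Ighm among them (log2 fold change -1.67, adjusted p = 0.00258), where 20.7% of all tested genes fell. Alb, another of the 4, had 41.0 and 63.2 in uninjured muscle, close to the filter value.

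Receptors that pair or signal with Fcer1g or Tyrobp had 9 of 19 genes higher and 1 lower in injured than in uninjured muscle. Of all tested genes 8.77% rose and 15.1% fell there. In transplanted injured muscle 10 were higher and 1 lower, where 10.5% of all genes rose and 20.7% fell. The median was 0.59 and 1.23. Itgam, the alpha chain of complement receptor CR3, had 14.3 and 37.9 in uninjured muscle, 527 and 655 in injured muscle and 1149 and 1164 in transplanted injured muscle, and was higher by at least 15.4-fold in the first and at least 30.2-fold in the second. Clec4e (Mincle), a receptor of damaged cells and mycobacterial lipids that uses Fcer1g, rose by 2.09 (adjusted p = 0.00412). Clec5a, which uses Tyrobp, rose by 2.28 (adjusted p = 0.00473), and Cd300c2 by 2.36 (adjusted p = 0.00146). Trem3 was the gene of this list that fell (log2 fold change -2.13, adjusted p = 0.0136). With only the 4 arrays compared 5 of the 19 passed in injured muscle, all higher, where 2068 of the 16293 tested probe sets passed in either direction. From bone marrow to uninjured muscle only Clec4n, which also uses Fcer1g, rose (log2 fold change 2.35, adjusted p = 0.00557). None passed between the injured groups, where 3 had an unadjusted p under 0.05, as did 8.75% of all tested probe sets.

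Of 8 other signalling adaptors, 6 fell after injury and 1 rose, where 15.1% of all tested genes fell and 8.77% rose. Those that fell were chains of the T and B cell antigen receptors and Lat, a scaffold of T cells (log2 fold change -3.26, adjusted p = 0.00255), and the one that rose was Lat2, a scaffold of myeloid and B cells, with 25.2 and 22.8 in uninjured, 450 and 439 in injured and 952 and 1034 in transplanted injured muscle (higher by at least 11.6-fold and by at least 25.9-fold). T cell markers (8 of 9 measured) summed to 1511 to 3144 in uninjured muscle and 412 to 460 in injured muscle, and their part in these falls was not tested. Hcst (DAP10), the gene next to Tyrobp, had 212 and 467 in uninjured muscle and 150 and 163 in injured muscle and did not pass in that comparison. Of 30 genes of the activating signal downstream, 8 rose in injured muscle, none fell and 22 did not pass, with a median of 0.88. Of all tested genes 8.77% rose and 15.1% fell in that comparison. Cdc42, a small GTPase that drives engulfment, had 7919 ± 544 against 1258 ± 359 (log2 fold change 2.68, SE 0.24, adjusted p = 0.000887), and Fgr, a Src family kinase, Prkcd, a protein kinase C, and Lcp2 (SLP-76), an adaptor, rose by 2.08, 2.53 and 1.51. Syk, the kinase that the motifs of Fcer1g and Tyrobp recruit, had 621 and 2602 in uninjured muscle, 1456 and 1156 in injured muscle and 1115 and 1178 in transplanted injured muscle, with the injured arrays between the uninjured ones. Syk and Hcst were named after their values were seen.

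Of 23 inhibitory genes, 7 rose in injured muscle, 2 fell and 14 did not pass, with a median of 0.66. Of all tested genes 8.77% rose and 15.1% fell. Ptpn6 (SHP-1), a phosphatase that inhibitory receptors recruit, read 1613 and 1418 in bone marrow against 350 and 534 in uninjured muscle, then 1971 and 1807 after injury and 2151 and 1854 after injury in transplanted mice. It fell from bone marrow to uninjured muscle (to 442 ± 130 from 1515 ± 137, adjusted p = 0.00757) and rose after injury (2.12, adjusted p = 0.00252). The collagen receptor Lair1 rose by 2.28 and Cd72 by 2.22, while Cd22, a receptor of B cells, and Pag1 fell by 2.14 and 1.82 on the log2 scale. With a gene's probe sets averaged, 10 inhibitory genes rose and 0 fell. Of 9 genes of phagocytosis and the oxidase that follows it, 6 rose in injured muscle and none fell, with a median of 2.13. The share of all tested genes that rose was 8.77%. Ncf1 and Cybb, subunits of the phagocyte oxidase, had 1266 ± 115 against 78.0 ± 43.8 and 1690 ± 49.7 against 121 ± 23.3 (adjusted p = 0.00114 and 0.00171), and Axl and Mertk, receptors for dying cells, rose by 3.73 and 2.13.

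**Figure D4:**
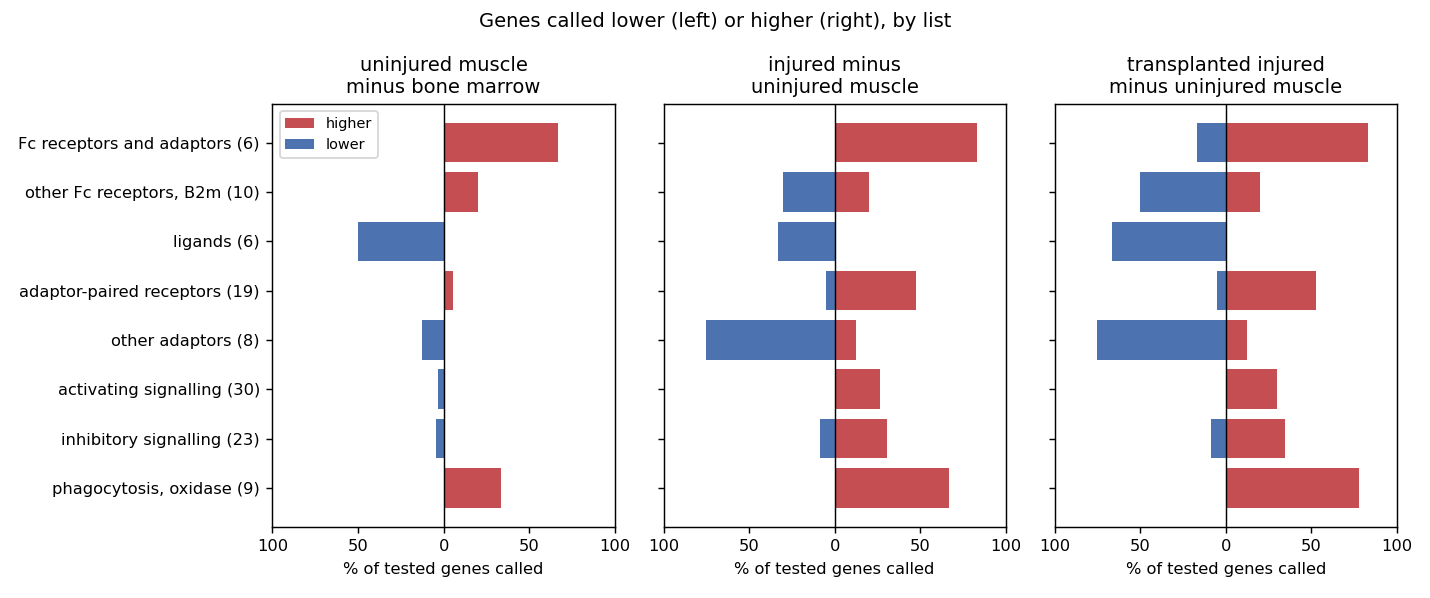
Share of the tested genes of each list called higher (right) or lower (left) in 3 comparisons, with the number of genes tested in brackets. In injured against uninjured muscle 5 of the 6 receptor and adaptor genes and 6 of 9 phagocytosis genes are higher, while 6 of 8 other adaptors are lower. Of all tested genes 8.77% were higher and 15.1% lower there.

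The lists of cell type markers changed between the groups too, some up and some down, and their part in the results was not tested. In sorted bulk cells, fewer cells of a type and less RNA per cell cannot be told apart. The summed intensity of 13 of 14 macrophage markers was 16913 to 20164 in bone marrow, 37510 to 47740 in uninjured muscle, 111575 to 116059 in injured muscle and 100206 to 112857 in transplanted injured muscle (the filter value for a probe set is 38.3, which 1 marker, Cd163, missed on 1 bone marrow array). The sums of the 2 injured groups overlapped, but single markers moved both ways between them. Cd163 read 553 and 494 in injured against 160 and 169 in transplanted injured muscle, and Cx3cr1 1721 and 1482 against 486 and 391. Cd68 was higher, at 8829 and 9167 against 13331 and 11052. None of the 13 passed there, and 4 had an unadjusted p under 0.05, where 8.75% of all tested probe sets did. Of the 13 markers 8 rose from bone marrow to uninjured muscle, as did 8 of 8 fibroblast, 6 of 9 endothelial, 6 of 7 muscle fibre and 4 of 9 mast cell and basophil markers. Of all tested genes 5.85% rose there. After injury 11 macrophage markers were higher than in uninjured muscle and 1 (Cd163) was lower, where 8.77% of all tested genes rose and 15.1% fell. Of 9 tested neutrophil markers 8 fell from uninjured to injured muscle and 1, Csf3r, the receptor of a granulocyte growth factor, rose. Their sums were 41953 to 51907 in bone marrow, 17560 to 30596 in uninjured muscle and 1157 to 1492 in the injured groups, where Ngp, Camp, Ltf and Elane were under 38.3 in both. B cells, which carry Fcgr2b, had sums of 12327 to 16236 in bone marrow, 4083 to 7087 in uninjured muscle and 388 to 587 in the injured groups, with Cd79a and Ms4a1 under 38.3 there, while Fcgr2b was highest in injured muscle.

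Beside the lower Fcgrt of transplanted injured muscle, sums of several lists were lower too, though few of their genes passed the test. The dendritic list summed to 26800 to 29137 in injured and 8560 to 8734 in transplanted injured muscle, with 1 of 9 genes called lower and 6 at an unadjusted p under 0.05. Most of the injured sum was the MHC class II genes H2-Aa (17131 and 19782 against 5713 and 5202) and H2-Ab1 (6836 and 6509 against 1444 and 1486). Cd209a (474 and 526 against 83.6 and 84.7) and Ccr7 (293 and 283 against 66.6 and 47.4) were lower too, without passing. So were Flt3 (123 and 144 against 64.4 and 33.7) and Itgax (479 and 606 against 312 and 317). Of all tested probe sets 50.2% did not overlap between these groups. Irf8 overlapped (1401 and 1251 against 1004 and 1356), as did Xcr1 and Zbtb46. The mast cell and basophil list summed to 3041 to 3395 and 286 to 347 (3 of 9 lower), the fibroblast list to 23574 to 23805 and 4483 to 4751 (0 of 8 by limma, 6 at an unadjusted p under 0.05), and the muscle fibre list to 826 to 897 and 190 to 200 (2 of 7 lower). Of all tested genes 0.273% were called lower between these groups. An unadjusted p under 0.05 was reached by 8.75% of all tested probe sets. Endothelial markers, of a cell type known for Fcgrt, summed to 4075 to 5593 in uninjured muscle, 420 to 527 in injured and 478 to 493 in transplanted injured muscle. Natural killer markers, of cells that carry Fcgr3 and use Tyrobp, summed to 949 to 1179 in injured and 4251 to 4280 in transplanted injured muscle. Most of this rise came from Gzma (85.1 and 73.8 against 1660 and 1659) and Gzmb (138 and 114 against 1392 and 1246), proteases of cytotoxic granules. These were the 2 of 8 that passed, where 0.0421% of all tested genes rose. Without passing, Nkg7 had 56.6 and 60.8 in injured and 232 and 240 in transplanted injured muscle, and Prf1 41.1 and 71.4 against 191 and 189. Klrd1, a receptor of these cells, had 281 and 318 in injured and 254 and 356 in transplanted injured muscle. Eomes had 45.2 and 54.2 against 37.5 and 58.8. An unadjusted p under 0.05 was reached by 4 of the 8. Fcgr3 and Tyrobp had mean values in transplanted injured muscle of 0.933 and 0.931 of the untransplanted level.

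**Figure D5:**
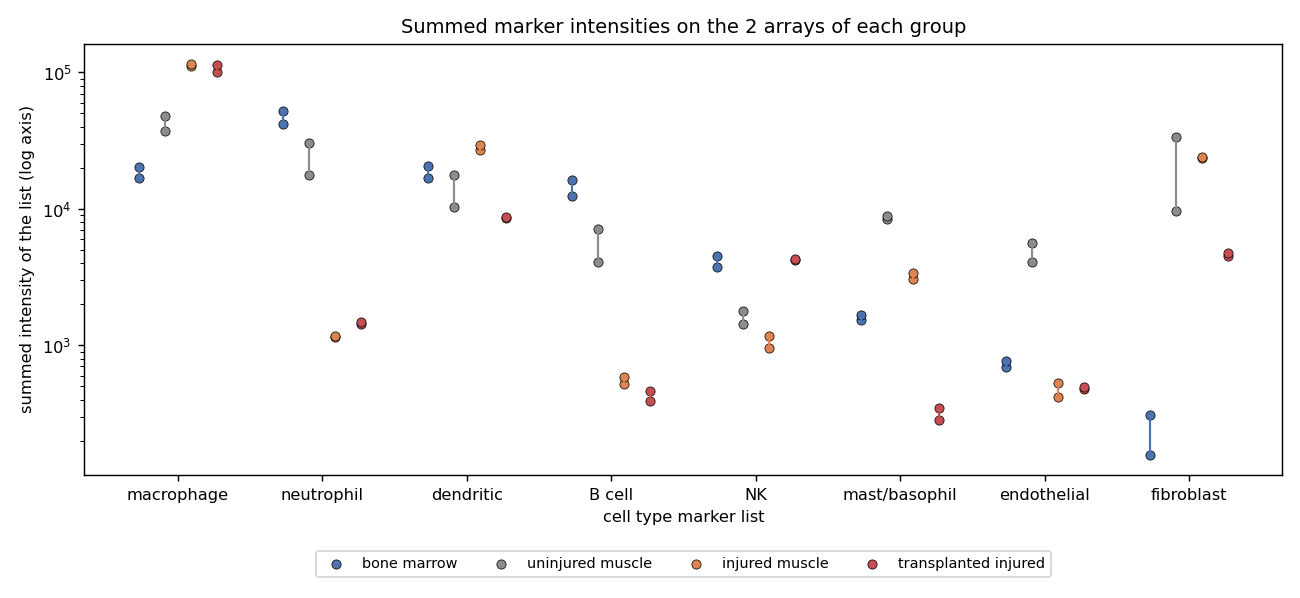
Summed intensity (log axis) of 8 marker lists on the 2 arrays of each group, joined by a line. Macrophage sums rise from 16913 to 20164 in bone marrow to at least 100206 in both injured groups, neutrophil and B cell sums fall, and dendritic, mast cell and fibroblast sums are lower in transplanted than in untransplanted injured muscle. The dendritic sum of injured muscle is mostly H2-Aa and H2-Ab1.

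The genes most like each member over the 8 arrays were looked up among 7404 other genes, by Pearson correlation of log2 values, as a description without a test, since all points share the 4 groups and 1 scaling. For Fcgr1 they were Xdh, a purine-degrading enzyme, Cfb, complement factor B, Gpnmb, a glycoprotein of macrophages, and Anxa2, an annexin (0.998 to 0.995). Cfb had 21.4 and 6.16 in bone marrow and 2421 and 2254 in transplanted injured muscle. For Fcer1g they were Parp12, Tlr8, a receptor of RNA, Akr1a1 and again Anxa2 (0.998 to 0.995). Tlr8 had 6.13 and 7.57 in bone marrow, 280 and 300 in injured and 350 and 330 in transplanted injured muscle. For Fcgr2b they were Pvr, Mertk, Arf2 and Fcgr3 (0.999 to 0.986), and for Fcgr3 they were Rab20, the chemokine Ccl8, Olfml3 and Cd14, the lipopolysaccharide coreceptor (0.992 to 0.988).

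For Tyrobp the nearest genes were Ripk3, a kinase of necroptosis, Timm10b, Atp5g1 and Ifi30, a reductase of lysosomes (0.997 to 0.992). Ripk3 read 183 and 188 in bone marrow against 163 and 196 in uninjured muscle, then 480 and 536 after injury and 537 and 458 after injury in transplanted mice, with all injured arrays above the others as for Tyrobp. For Fcgrt the nearest gene was Clec10a, a lectin of macrophages and dendritic cells, at 0.976. It read 871 and 809 in bone marrow against 1284 and 3388 in uninjured muscle, then 2240 and 2216 after injury and 691 and 580 after injury in transplanted mice, so the lower and the higher uninjured array were the same as for Fcgrt. Rras, Tspan9 and Birc3 followed at 0.948 to 0.934.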

How the data were processed

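RNA of sorted CD45+/Sca1+ cells was measured on 8 arrays, per the labels from 1 µg of total RNA each. The deposited intensity values, 1 per probe set, are linear and were scaled by the authors, per the values, to a trimmed mean of about 250.1 per array (lowest and highest 2% left out); the submitters' processing notes name GCOS, with no role. Of 22690 probe sets 64 controls were left out, 20380 had 1 gene, 691 several and 1555 none. Intensities below 1 became 1, and tests used log2(value + 4), with the 10th percentile as pseudocount, so folds of dim genes are understated. Tested were the 16293 probe sets (9509 genes) that reached 38.3, the 40th percentile, on 2 or more arrays. Groups were compared in limma 3.58.1 (R 4.3.3) with 1 mean per group on all 8 arrays, an intensity trend, two-sided tests and Benjamini-Hochberg adjustment per comparison (4 residual and 4.07 prior degrees of freedom, tested on simulated data). Having 2 arrays per group sets the precision, with a median SE of 0.45. An "at least" fold is the higher mean over 38.3, given where the dimmer group had no array reaching it. Named genes were all members, the up to 4 genes of a list with the smallest p among those past the threshold, and the 4 genes most like each member; other names were chosen after values were seen. Members and lists were chosen with earlier results of these data known. Alternatives were other normalizations, pseudocounts, filters, weights, fewer arrays and a replicate block. Genes of the lists with no single-gene probe set are not analysed here.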

Additional observations from a re-analysis of the deposited data

How the results depend on the processing

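Of the 1026 member log2 fold changes computed under alternatives, 973 kept their direction and their side of the threshold, 34 lost and 14 gained a call, and 5 turned sign. The sign turned for Tyrobp between uninjured muscle and bone marrow, whose values ran from -0.306 to 0.0435 with single arrays left out, and for Fcgrt between injured and uninjured muscle, from -1.46 to 0.57. Between the injured groups it turned for Tyrobp with quantile normalization (0.0036) and median centring (0.0297) and for Fcgr3 with median centring (0.0359), and the cause was not tested.

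Fitting only the 4 arrays compared, which leaves fewer residual degrees of freedom, gave 0 member calls and 288 calls in all between uninjured muscle and bone marrow, 2068 in all between injured and uninjured muscle, 3011 between transplanted injured and uninjured muscle, and 5 member calls and 1125 in all between the injured groups. Array weights gave 478 and 2699 calls in the first and the second of these comparisons, and 1 member call and 811 in all in the last. There, 41 calls became 9 with quantile normalization, 24 with median centring and 62 with a pseudocount at the 25th percentile, and the cause was not tested. Leaving out single arrays gave 511 to 3124 calls in all and 5 to 8 among members for uninjured muscle against bone marrow, 1323 to 6068 and 5 to 9 for injured against uninjured muscle, 2402 to 6744 and 4 to 9 for transplanted injured against uninjured muscle, and 0 to 268 and 0 to 1 between the injured groups. Against bone marrow it gave 2294 to 7018 in all and 8 to 9 members for injured muscle, and 2591 to 7205 and 8 for transplanted injured muscle.

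Same-numbered arrays did not deviate together in 5 of the 6 pairs of groups (correlations of -0.032 to 0.0029; 0.313 for bone marrow with uninjured muscle). The fit with the replicate number as a block changed no member call and gave 15 calls in all between the injured groups. Median centring moved the median of all tested probe sets from -0.03 to -0.21 (uninjured muscle against bone marrow) and from -0.19 to 0.09 (transplanted injured against uninjured muscle), and the share of higher calls from 79.4% to 69.4% and from 42.9% to 59.0%; between the injured groups quantile normalization moved that share from 9.76% to 22.2%. The intensities come without detection calls, so whether values near or under 38.3 (Fcrls, Fcer1a, Itgam, Lat2 and Cd163 in their lower groups) lie above background is not known.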
